A study of Saccharomyces cerevisiae with 11 samples.

Results

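Budding yeast grown without a break in glucosamine was compared with untreated yeast across all probe sets of an Affymetrix YG-S98 expression array. The 6 arrays of this comparison were chosen by their labels from the 11 of the study: 3 of untreated wild-type cells and 3 of wild-type cells labelled as grown in glucosamine to a steady state, here called continuous. Both groups were BY4741, a haploid laboratory strain of Saccharomyces cerevisiae of mating type a. Untreated cells grew overnight in YPD, a rich medium with glucose, were diluted 50-fold into fresh YPD and were harvested at an optical density of 1.6 to 1.8. Continuous cells grew overnight in 15 mM glucosamine, were diluted 50-fold into YPD that again held glucosamine, and were harvested at the same density; the concentration after dilution is not given for them. A further 3 wild-type arrays shared the fit; their cells received 15 mM glucosamine only during the final 2 h before harvest. They entered the estimate of the spread and give 1 direct comparison. The 2 arrays of an fks1 mutant strain are used for 1 check of the strain. Each array reads bulk RNA of a culture, so fewer cells of a kind and less RNA per cell cannot be told apart.

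Glucosamine is an amino sugar that yeast takes up through its hexose transporters and phosphorylates with the hexokinases. Glucosamine 6-phosphate is an intermediate of the hexosamine pathway, whose product, a nucleotide sugar, is polymerised to chitin by the chitin synthases and is also used for protein glycosylation. Chitin is a minor component of the yeast wall beside glucan and mannoproteins, and wall damage is answered by the cell integrity cascade, in which the kinase Slt2 activates the transcription factor Rlm1. In yeast growing on glucose, genes of respiration and of other carbon sources are repressed to varying degrees.

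The array carried 9335 probe sets, of which 60 were manufacturer's controls. Of the other 9275, 8616 exceeded a floor of 7.7 signal units on 3 or more of the 9 wild-type arrays and were tested, and 659 were not. Probe sets whose names end in _f_at recognise several members of a gene family at once. They are called family probe sets here, 538 of 586 were tested, and they are kept apart from the other 8078. A probe set was called where the adjusted p of limma, over all 8616, was under 0.05, and "rose" and "fell" are used only of called probe sets. A difference is the mean log2 signal of the continuous arrays minus that of the untreated arrays, with the standard error (SE) of the fit.

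Marker genes of the strain were read first. The 7 genes specific to a cells read 36.2 to 7512.3 on the 9 wild-type arrays and the 4 specific to alpha cells 30.9 to 188.7. Both lists exceeded the control value given below on every array, and signals of different probe sets cannot be set against each other, so these values do not settle the mating type. The summed signal of the alpha genes was 279.5 to 355 on the untreated arrays and 324 to 358 on the continuous ones. The 5 genes of meiosis summed to 71.2 to 101.2 on untreated arrays and 76.8 to 101.9 on continuous arrays, and SPO11 and SPS2, both of that programme, never exceeded 3 units on the wild-type arrays. BY4741 lacks URA3, LEU2, HIS3 and MET17 by its textbook genotype. URA3 read 1.3 to 6.7, under 25.5 units, the 95th percentile over 19 of the manufacturer's control probe sets, called the control value here. LEU2 read 44.0 to 99.4, above that value on all 9 arrays, and HIS3 527.5 to 886.1. The HIS3 allele of the strain is a partial deletion, so signal from the rest of the gene checks nothing. MET17, in contrast, read 108.5 to 1248.1 on the 9 wild-type arrays and 7.6 and 7.7 on the 2 fks1 arrays. The signals of MET17 and, at a low level, of LEU2 in the wild-type cells go against the textbook deletions, and the reason was not tested.

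The arrays were alike in scale. Their trimmed means lay between 500.4 and 500.5, their medians between 126.2 and 141.9, and 76.7% to 80.4% of the probe sets exceeded the control value. The ratio of the 5' to the 3' control probe set of ACT1 was 0.772, 0.759 and 0.689 on the untreated arrays and 0.776, 0.731 and 0.774 on the continuous arrays. The same ratio for SPT15 was 0.283, 0.294 and 0.296 untreated and 0.406, 0.349 and 0.346 continuous, so it was higher on each continuous array. Its part in the differences below was not tested. The labels number the replicates without saying whether they were separate cultures, so the p-values measure a spread between arrays that may be technical. No batch is labelled, and a batch of the continuous arrays could not be told apart from the treatment.

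Continuous glucosamine went with 124 called probe sets, 1.44% of those tested, of which 91 rose and 33 fell. In all, 1.06% of probe sets rose and 0.383% fell, and the family probe sets held 75 of the 91 rises. Several of these can read the same transcripts, so the 75 are not separate genes. Among family probe sets 14.3% were called, 13.9% as rises and 0.372% as falls. Among the others 0.582% were called, 0.198% as rises (16) and 0.384% as falls (31). The median difference was 0.45 over the family probe sets and 0.01 over the others. Rises made up 73.4% of the calls with the deposited scaling and 58.9% (33 of 56) when each array was scaled to its median, which moved the median of all probe sets from 0.02 to -0.04. They were the minority of fewer calls in several fits: 36.4% without the variance trend, 25% with family probe sets left out, 27.8% with plain probe sets only, 25% without continuous array 1, 40% without untreated array 3 and 0% of 2 calls without untreated array 2. At an unadjusted p under 0.05, 13.8% of all, 50.7% of the family and 11.4% of the other probe sets differed.

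**Figure D1:**
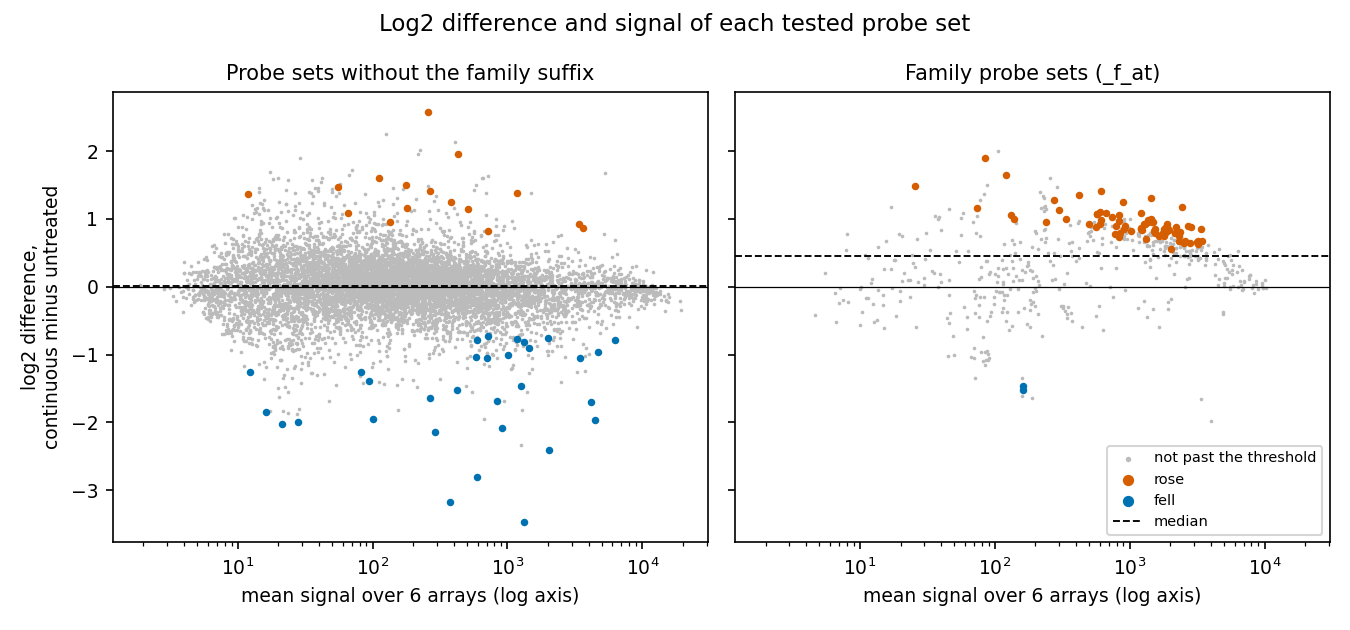
Each point is a tested probe set, with its mean signal over the 6 arrays on a log axis and its log2 difference (continuous minus untreated) on the vertical axis. The dashed line is the panel's median, 0.01 for probe sets without the family suffix and 0.45 for family probe sets. Called rises of family probe sets form a band above 0 at intermediate signals, while called falls lie mostly among the other probe sets.

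Of the 47 calls outside the families, 38 carried a single gene symbol, 14 with a rise and 24 with a fall. The differences corresponded to 1.66-fold to 11.1-fold, and 27 of the 38 were at least 2-fold. Signals of the 3 untreated and the 3 continuous arrays did not overlap for any of the 38, as was so for 10.6% (higher) and 9.61% (lower) of all probe sets. For 35 of the 38 all 6 arrays exceeded the control value. The test depended strongly on single arrays. Without untreated array 1, 2 or 3, the number of the 38 still called was 3, 1 and 4. Without continuous array 1, 2 or 3 it was 5, 11 and 21, and without a 2 h array 32, 18 and 36. All 38 kept their sign and an unadjusted p under 0.05 in each of these 9 fits. The sign could not change, because the groups do not overlap. The 38 were chosen by p on these same arrays, so this is no separate check. HPF1, ARO10 and RIB4 were called in 21, 20 and 19 of the 22 alternatives, and the other 35 genes in 3 to 15.

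The wall mannoprotein gene HPF1 had the smallest p of any named gene. Its product is a heavily glycosylated secreted protein of the cell wall. HPF1 read 6200.9, 5861.1 and 6930.5 on the untreated arrays and 2041.8, 1809.4 and 2001.1 on the continuous arrays. The groups were far apart and each was tight. HPF1 fell 3.24-fold (log2 -1.70, SE 0.11, limma adjusted p = 0.00019). No other named gene was called in each of the 9 fits that left out 1 array. The 2 h arrays lay between the groups, at 4070.5, 3688.5 and 4449.0.

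Other wall protein genes moved less or not in 1 direction. TOS6, which encodes a small wall-anchored protein, read 3957.8, 6024.7 and 4017.5 untreated and 1952.6, 2231.1 and 2471.3 continuous. It fell by 1.05 on the log2 scale (SE 0.21, limma adjusted p = 0.0482). Of 14 tested wall mannoprotein genes, HPF1 was the 1 that fell and none rose, with 10 differences negative and a median of -0.14. Among them FLO11, the adhesin of invasive growth, read 268.2, 278.9 and 278.4 untreated and 166.7, 196.4 and 179.9 continuous, without overlap (log2 -0.61, limma adjusted p = 0.0824). None of the 23 genes of glucan synthesis and remodelling was called, with 17 differences negative, a median of -0.15 and a range of -0.62 to 0.38.

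None of the 12 genes that lead from fructose 6-phosphate to chitin was called. Their differences ran from -0.58 to 0.44, 8 of them positive, with a median of 0.05 against 0.02 over all probe sets tested. The lowest was BNI4, which tethers chitin synthase at the bud neck. BNI4 read 464.4, 508.9 and 411.6 untreated and 264.5, 344.3 and 322.4 continuous, without overlap (limma adjusted p = 0.101). GFA1, the gene of the enzyme that makes glucosamine 6-phosphate, differed by 0.14, and CHS3, the main chitin synthase gene, by -0.066, both named after their values were seen. Protein glycosylation, only part of which uses the nucleotide sugar, had 0 of 34 genes called, with 31 differences negative and a median of -0.20. In 15 of the 34 every continuous array lay below every untreated array, where 9.92% of the other probe sets did so. DPM1, whose product makes dolichol-phosphate mannose, had a difference of -0.63 (limma adjusted p = 0.0716).

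Outputs of the cell integrity cascade rose in part. Of 23 tested, PRM5 and SRL3 rose and none fell, 15 differences were positive and the median was 0.19 (0.10 to 0.49 with 1 array left out). Outside the families 0.198% of probe sets rose. PRM5, a membrane protein gene activated through Rlm1, read 160.4, 180.6 and 164.3 on untreated arrays and 670.8, 428.7 and 966.7 on continuous arrays. All continuous arrays were above all untreated ones, and array 2 was the lowest of them. PRM5 rose 3.88-fold (log2 1.96, SE 0.28, limma adjusted p = 0.0265). SRL3, whose product restrains entry into the cell cycle, read 68.7, 67.0 and 61.3 untreated and 605.2, 176.0 and 554.6 continuous, so array 2 was again the lowest. SRL3 rose 5.94-fold (log2 2.57, SE 0.42, limma adjusted p = 0.0272).

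The same array was low in further members of this group, none of them called. NCW2, a wall protein gene, read 759.2, 831.6 and 716.6 untreated and 2853.5, 950.5 and 2918.8 continuous (log2 1.38, limma adjusted p = 0.101). SLT2 itself read 285.9, 293.7 and 274.9 untreated and 981.7, 423.1 and 1274.1 continuous (log2 1.51, limma adjusted p = 0.075). RLM1 read 261.0, 332.2 and 196.4 untreated and 621.8, 327.2 and 787.7 continuous, so its groups overlapped through array 2. KDX1, a kinase gene related to SLT2, had similar levels on the 3 continuous arrays, at 74.7, 82.4 and 71.7 against 26.1, 31.2 and 33.3 (log2 1.34, limma adjusted p = 0.0533). The median of the 23 outputs was 0.31, -0.17 and 0.67 on continuous arrays 1 to 3. None of the 17 genes of the cascade itself was called, with 11 differences positive and a median of 0.16, which was -0.00085 without continuous array 3. WSC2, a wall sensor gene, differed in the other direction by -0.62 (limma adjusted p = 0.0907). PIR1, a wall protein gene among the outputs, differed by -0.31.

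The respiratory chain was lower throughout. All 26 tested genes had a negative difference, from -1.69 to -0.34 with a median of -0.91, and 3 of the 26 fell. Outside the families 0.384% of probe sets fell. In 21 of the 26 every continuous array lay below every untreated array, against 9.92% of the other probe sets. CYC1, the gene of the main cytochrome c, read 1627.8, 1313.2 and 904.9 untreated and 367.1, 372.6 and 420.7 continuous. The fall was 3.23-fold (log2 -1.69, SE 0.33, limma adjusted p = 0.0421). COX4, a subunit gene of cytochrome c oxidase, read 2015.4, 2097.4 and 1403.3 untreated and 651.2, 590.9 and 738.8 continuous. It fell 2.75-fold (limma adjusted p = 0.0289). QCR6, a subunit gene of the cytochrome bc1 complex, read 794.9, 874.3 and 692.2 untreated and 354.4, 403.2 and 390.9 continuous, and fell 2.05-fold (limma adjusted p = 0.0272). For all 3 genes untreated array 3 was the lowest of its group and still lay above the continuous arrays.

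The next members by p were not called and lay in the same direction. SDH1, the flavoprotein subunit of succinate dehydrogenase, read 1005.7, 818.9 and 573.4 untreated and 157.1, 321.4 and 376.1 continuous (log2 -1.55, limma adjusted p = 0.0646). RIP1, the Rieske iron-sulfur protein, had a difference of -1.55 (limma adjusted p = 0.0665). SDH3 differed by -1.01 and QCR7 by -0.83. On single arrays the median of the 26 genes was 0.15, 0.20 and -0.37 untreated and -1.04, -1.07 and -0.61 continuous. The 2 h arrays spread over 0.34, -0.11 and -0.60, so 2 h array 3 lay between untreated array 3 and continuous array 3.

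ATP synthase showed the same picture with 1 call. Of 16 genes of the enzyme and its inhibitors, all had a negative difference, with a median of -0.58, and in 11 the continuous arrays lay below all untreated ones, against 9.92% of the other probe sets. INH1, the gene of the peptide that inhibits the enzyme when it runs in reverse, read 765.8, 950.9 and 327.7 untreated and 62.4, 57.1 and 92.0 continuous. INH1 fell by 3.17 on the log2 scale (SE 0.50, limma adjusted p = 0.0272). The subunit genes differed less. ATP15 read 2641.1, 2698.4 and 2436.8 untreated and 1480.1, 1376.7 and 1647.2 continuous (log2 -0.79, limma adjusted p = 0.055). ATP2, a catalytic subunit gene, had a difference of -0.95, and TIM11, needed for pairing of the enzyme, one of -0.62. Genes of the inner and outer membrane carriers lay with them, at -0.60 for PET9, the main ADP/ATP carrier, -1.01 for the phosphate carrier MIR1 and -0.44 for the porin POR1, none of them called.

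The tricarboxylic acid cycle had 0 of 16 genes called, 15 negative differences and a median of -0.35. ACO1, aconitase, read 3706.8, 4274.6 and 2787.5 untreated and 1198.9, 1045.1 and 1889.6 continuous, without overlap (log2 -1.41, limma adjusted p = 0.053). MDH1, the mitochondrial malate dehydrogenase, differed by -1.01 and IDH2, a subunit of isocitrate dehydrogenase, by -1.25. Genes of the retrograde pathway, which supply glutamate precursors when the mitochondrial cycle is low, all had positive differences, 10 of 10 with a median of 0.32 and none called. CIT2, the peroxisomal citrate synthase and usual marker of that pathway, read 309.6, 346.2 and 378.6 untreated and 831.3, 403.0 and 889.4 continuous. Its groups did not overlap, and continuous array 2 was close to the untreated arrays (log2 0.96, limma adjusted p = 0.227).

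Genes of the mitochondrial ribosome had smaller negative differences. Of 66 protein genes 64 had a negative difference, the median was -0.32, and in 34 the continuous arrays lay below all untreated ones, where 9.92% of the other probe sets did so. MRPL8, a protein of its large subunit, was the 1 member that fell. MRPL8 read 738.4, 833.5 and 688.9 untreated and 420.0, 402.6 and 492.5 continuous, a 1.72-fold fall (log2 -0.78, SE 0.14, limma adjusted p = 0.0328). The 2 h arrays read 500.7, 434.3 and 470.5, close to the continuous arrays. The list's median on the 2 h arrays was -0.15, -0.27 and -0.45 and on the continuous arrays -0.24, -0.40 and -0.30, so these ranges overlapped. Further mitochondrial genes, named here after their values were seen, fell as well: COA3, an assembly factor of cytochrome oxidase (log2 -0.91), and YAH1, the mitochondrial ferredoxin (log2 -0.75).

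**Figure D2:**
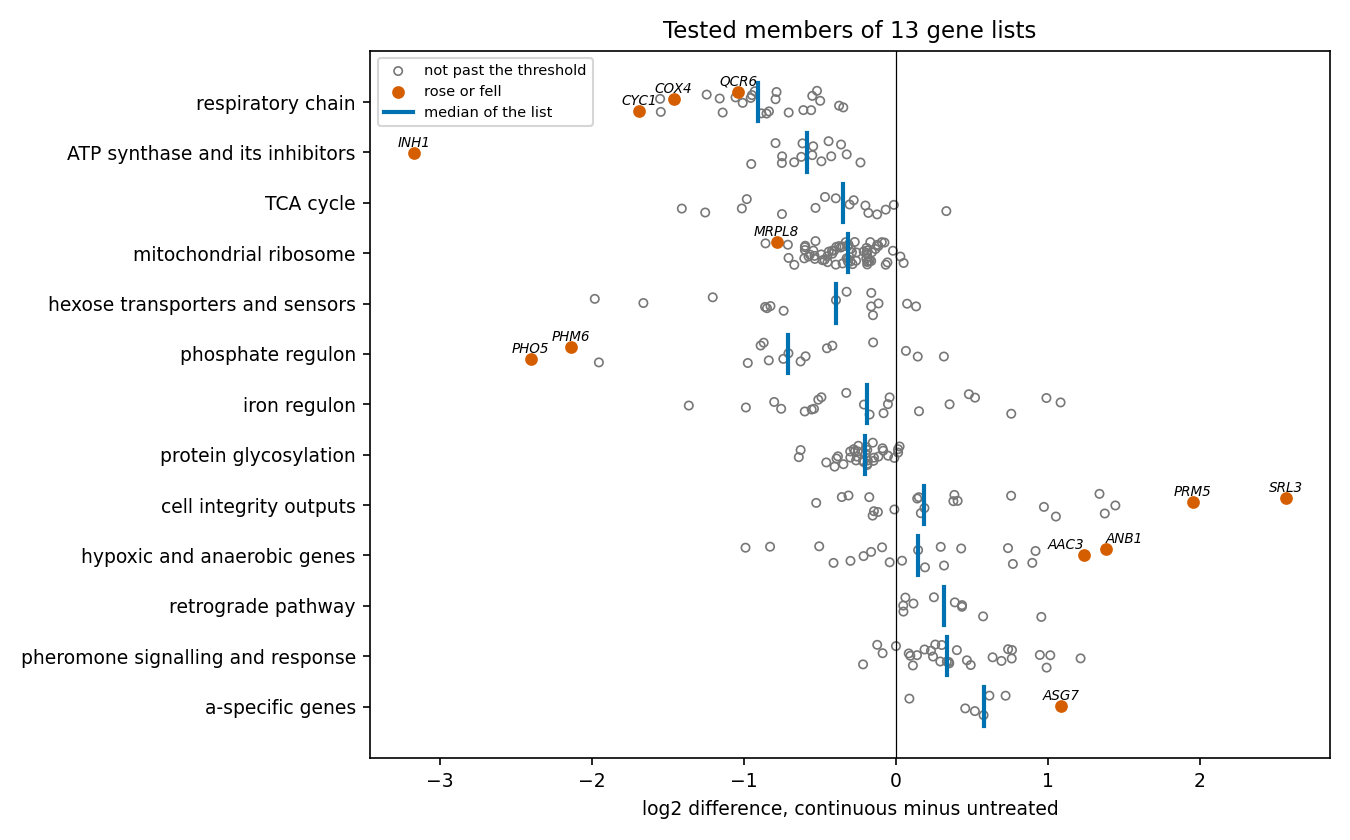
Each open circle is a tested member of a gene list at its log2 difference, each filled circle a called member, and each vertical bar the median of the list. All members of the respiratory chain and ATP synthase lists lie below 0, with medians of -0.91 and -0.58, and all members of the a-specific and retrograde lists lie above it.

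Genes that differ by oxygen supply were mixed. Of 21 hypoxic and anaerobic genes ANB1 and AAC3 rose, none fell, 12 differences were positive and 9 negative, and the median was 0.15. Outside the families 0.198% of probe sets rose. ANB1, the form of translation factor eIF5A made at low oxygen, read 448.4, 701.4 and 790.0 untreated and 1372.9, 2466.7 and 1307.9 continuous. It rose 2.61-fold (log2 1.39, SE 0.27, limma adjusted p = 0.0421). AAC3, the ADP/ATP carrier of anaerobic cells, read 206.4, 256.7 and 204.9 untreated and 463.5, 709.3 and 437.6 continuous. It rose 2.37-fold (log2 1.24, SE 0.21, limma adjusted p = 0.0272). For both genes continuous array 2 was the highest.

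Members not called lay on both sides. DAN1, an anaerobic mannoprotein gene, read 36.8, 35.1 and 35.7 untreated and 55.7, 62.8 and 65.6 continuous (log2 0.77, limma adjusted p = 0.0831). UPC2, an activator of sterol uptake, had a difference of 0.92 and TIR1, another anaerobic mannoprotein gene, one of 0.43. COX5B, the hypoxic form of a cytochrome oxidase subunit, lay in the other direction at 341.2, 429.7 and 268.2 untreated and 164.3, 145.3 and 211.1 continuous (log2 -0.99, limma adjusted p = 0.099). The aerobic and anaerobic carrier genes PET9 and AAC3 thus differed in opposite directions, while COX5B and its aerobic partner COX5A (log2 -0.70, named after its value was seen) differed in the same one.

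Hexose transport and sugar phosphorylation, the route by which glucosamine enters metabolism, had no call. Of 15 hexose transporter and sensor genes 13 had a negative difference, with a median of -0.39 (-0.59 to -0.21 with 1 array left out). HXT6 and HXT7, near-identical high-affinity transporters, are read only by family probe sets that may not separate them. The HXT6 probe set read 7221.9, 8072.2 and 3756.1 untreated and 1241.6, 1058.6 and 2713.6 continuous, without overlap (log2 -1.98, limma adjusted p = 0.0854). That of HXT7 differed by -1.66 (limma adjusted p = 0.101). HXT2 differed by -0.85. HXK1, a hexokinase gene repressed by glucose, read 2174.7, 3289.8 and 769.2 untreated and 326.3, 149.8 and 866.8 continuous, so untreated array 3 lay under continuous array 3 (log2 -2.34, limma adjusted p = 0.156). None of the 16 genes of hexokinases and glucose repression was called, and their median was -0.06.

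Of 28 genes for other carbon sources 1 fell and none rose, with 14 differences on each side. It was JEN1, the lactate and pyruvate transporter, at 24.5, 36.5 and 23.6 untreated and 3.3, 2.7 and 7.4 continuous. Most of these values lie under the control value and the continuous ones under the floor, and with the floor at the control value the difference was -0.17. ALD4, a mitochondrial aldehyde dehydrogenase gene, differed by -1.20 (limma adjusted p = 0.0764) and MDH2, the cytosolic malate dehydrogenase of gluconeogenesis, by 0.51, neither called. ZWF1, the first enzyme of the pentose phosphate pathway, and SOD1, the copper-zinc superoxide dismutase, were named after their values were seen. ZWF1 read 1322.9, 1401.3 and 1265.3 untreated and 582.8, 548.8 and 892.9 continuous and fell 2.02-fold (limma adjusted p = 0.036). SOD1 read 5855.8, 6310.6 and 6129.4 untreated and 3732.5, 2128.1 and 3844.0 continuous and fell 1.95-fold (limma adjusted p = 0.0482).

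Targets of the general stress factors Msn2 and Msn4 were led by HSP12, whose product is a small membrane-associated stress protein. HSP12 read 2378.9, 4015.1 and 889.6 untreated and 83.2, 222.8 and 337.3 continuous. It fell 11.1-fold, more than any other named gene that was called (log2 -3.47, SE 0.66, limma adjusted p = 0.0408). Of 26 such targets HSP12 alone fell and none rose, with 23 differences negative and a median of -0.52, which ranged from -0.80 to -0.24 when 1 array was left out. In 3 of the 26 the continuous arrays lay below all untreated ones, a share near the 9.92% of the other probe sets. DDR2, another stress target, read 1498.9, 1940.1 and 725.3 untreated and 221.4, 287.5 and 997.6 continuous, with overlapping groups. The list's median was -0.01, 0.49 and -0.45 on the untreated arrays and -0.72, -0.84 and 0.02 on the continuous arrays, so continuous array 3 lay among the untreated arrays. Trehalose and glycogen genes, 0 of 20 called with a median of -0.29, showed the same split, with -0.45, -0.93 and 0.33 on the continuous arrays.

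**Figure D3:**
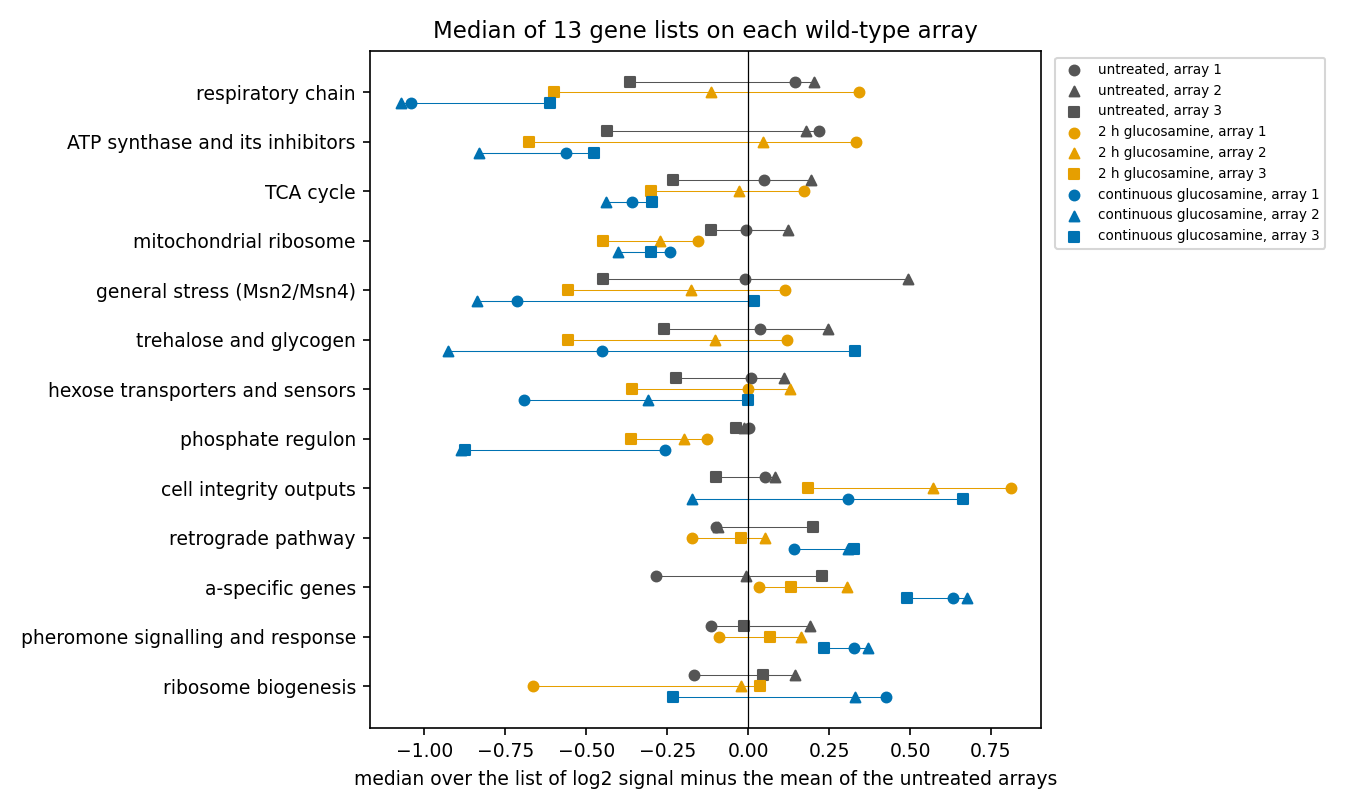
Each symbol is the median, over the tested members of a gene list, of the log2 signal on 1 array minus the mean of the untreated arrays; circles, triangles and squares are arrays 1, 2 and 3 of a group. The continuous arrays lie apart from the untreated arrays in the respiratory chain, mitochondrial ribosome and a-specific lists, and continuous array 3 lies within or above the untreated arrays in the stress and trehalose lists.

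The phosphate regulon had 2 falls and no rise among 17 genes, 14 negative differences and a median of -0.71. Over the other probe sets 0.384% fell. In 8 of the 17 the continuous arrays lay below all untreated ones, against 9.92% of the other probe sets. PHO5, the secreted acid phosphatase and classical target of the regulator Pho4, read 3926.8, 2649.5 and 3495.0 untreated and 1313.9, 476.1 and 393.1 continuous. It fell 5.29-fold (log2 -2.40, SE 0.41, limma adjusted p = 0.0285). PHM6, a phosphate-responsive gene of unknown function, read 463.6, 484.4 and 421.1 untreated and 219.5, 103.1 and 48.9 continuous, and fell 4.40-fold (limma adjusted p = 0.0457). SPL2, a regulator of phosphate transport, read 959.3, 1092.3 and 964.3 untreated and 680.1, 176.0 and 145.5 continuous (log2 -1.95, limma adjusted p = 0.0725). Continuous array 1 was the highest of its group in all 3 genes, and the list's median was -0.26, -0.89 and -0.88 on the continuous arrays.

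Polyphosphate and phosphate uptake genes differed less. VTC2, of the polyphosphate polymerase complex, had a difference of -0.71, PHO8, the vacuolar phosphatase, one of -0.87, and PHO84, the high-affinity transporter, one of -0.59, none of them called. In the iron regulon 0 of 22 genes were called, 15 differences were negative and the median was -0.19, which was -0.0089 without continuous array 2. FRE1, the main surface reductase, read 187.2, 230.7 and 293.7 untreated and 104.7, 76.6 and 93.3 continuous (log2 -1.36, limma adjusted p = 0.056). FET3, the ferroxidase of iron uptake, differed by -0.99, while FIT3, a wall protein that holds iron-siderophores, differed by 0.76, so the genes of this regulon did not share a sign. Of 11 zinc regulon genes none was called. IZH4, which encodes a membrane protein linked to zinc homeostasis, read 308.2, 309.3 and 270.5 untreated and 1652.4, 895.4 and 494.8 continuous (log2 1.61, limma adjusted p = 0.0907).

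MET17, the sulfhydrylase that joins sulfide into homocysteine, was the 1 of 29 sulfur and methionine genes that fell, and none rose. It read 1204.3, 684.1 and 1248.1 untreated, 985.3, 265.3 and 684.2 after 2 h and 223.0, 123.1 and 108.5 continuous. The continuous arrays lay below all others. MET17 fell 7.02-fold (log2 -2.81, SE 0.46, limma adjusted p = 0.0272). The reading of this gene at variance with the strain's textbook genotype bears on this result. The list's median was -0.11, with 21 negative differences. In 11 of the 29 the continuous arrays lay below all untreated ones, where 9.92% of the other probe sets did so. MUP1, the high-affinity methionine permease, differed by -0.87 and MET6, methionine synthase, by -0.56, neither called.

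Amino acid breakdown to fusel alcohols, the Ehrlich pathway, held calls in both directions. Of 14 genes of the pathway and its esters, ARO9 and ARO10 fell and ATF1 rose. Outside the families 0.384% of probe sets fell and 0.198% rose. ARO10, the decarboxylase of the pathway, read 416.2, 423.5 and 359.3 untreated and 108.8, 137.4 and 140.6 continuous. Both groups were tight and ARO10 fell 3.11-fold (log2 -1.64, SE 0.18, limma adjusted p = 0.0117). ARO9, the aromatic aminotransferase, read 906.0, 1097.4 and 837.9 untreated and 357.6, 547.9 and 484.4 continuous and fell 2.06-fold (log2 -1.04, SE 0.18, limma adjusted p = 0.0285). ATF1, the transferase that makes acetate esters of those alcohols, read 154.7, 120.8 and 153.2 untreated and 478.9, 397.8 and 280.1 continuous. ATF1 rose 2.65-fold (log2 1.41, SE 0.25, limma adjusted p = 0.031). The median of the 14 genes was 0.04 and turned negative without continuous array 1 or 2 or untreated array 1 (-0.053, -0.10 and -0.018). Among other nitrogen genes GLN1, glutamine synthetase, differed by 0.77 and MEP3, an ammonium permease, by -0.62, neither called, and none of the 28 genes of nitrogen source use was called.

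RIB4, which encodes lumazine synthase of riboflavin synthesis, read 2410.6, 2589.4 and 2737.2 untreated and 4418.0, 4920.8 and 4760.5 continuous. RIB4 rose 1.82-fold (log2 0.87, SE 0.10, limma adjusted p = 0.0117), and it was the 1 of 8 riboflavin genes called. The 2 h arrays, at 4565.0, 4256.6 and 4408.1, were level with the continuous ones. URA4, dihydroorotase of pyrimidine synthesis, read 2082.8, 1930.6 and 3167.2 untreated and 4142.5, 4697.7 and 4483.8 continuous and rose 1.90-fold (limma adjusted p = 0.0421). CHO1, the phosphatidylserine synthase, and OSH2, a sterol-binding protein, fell by 0.81 and 0.73 on the log2 scale and were named after their values were seen. In heme synthesis HEM2 differed by -0.70, in ergosterol synthesis ERG2 by -0.34, and in thiamine synthesis THI4 by 1.10, all 3 uncalled in lists with no call.

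Genes of the a mating type and of pheromone signalling had mostly positive differences. All 7 genes specific to a cells had a positive difference, with a median of 0.58, and 1 rose, where 8.26% of the other probe sets had all continuous arrays above and 3 of the 7 did. ASG7, which acts on pheromone signalling after mating, read 40.1, 36.2 and 49.6 untreated and 94.2, 81.3 and 90.3 continuous. It rose 2.13-fold (log2 1.09, SE 0.22, limma adjusted p = 0.0482). BAR1, the protease that degrades alpha factor, read 1057.0, 1227.1 and 1442.1 untreated and 1912.0, 2040.1 and 1730.2 continuous (log2 0.62, limma adjusted p = 0.075). STE2, the receptor of alpha factor, had a difference of 0.58. Of 29 genes of pheromone signalling and response 26 had a positive difference, with a median of 0.34, 8 did not overlap above and none was called.

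The components of the pathway had the largest values of that group. STE18, the gamma subunit of the receptor's G protein, read 109.1, 60.4 and 92.8 untreated and 180.3, 206.9 and 206.0 continuous (log2 1.22, limma adjusted p = 0.0506). FUS3, the kinase of the mating response, read 147.7, 221.8 and 171.1 untreated and 375.6, 378.7 and 311.1 continuous (log2 0.99, limma adjusted p = 0.075), and its 2 other probe sets differed by 0.84 and 0.23. SST2, which dampens the signal, had a difference of 0.95, and GPA1, the alpha subunit, one of 0.77. IME1, the master regulator of entry into meiosis, normally low in haploid cells, read 93.9, 74.7 and 109.1 untreated and 269.3, 210.3 and 310.1 continuous. It rose 2.84-fold (log2 1.51, SE 0.21, limma adjusted p = 0.0265). Of 18 meiosis genes it alone was called. IME2, a kinase gene and direct target of Ime1, read 14.1, 26.7 and 24.7 untreated and 44.5, 33.2 and 60.1 continuous, without overlap (log2 1.09, limma adjusted p = 0.132). NDT80, a later regulator, differed by -0.95. Of the 18 genes 9 differences were positive and 9 negative.

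**Figure D4:**
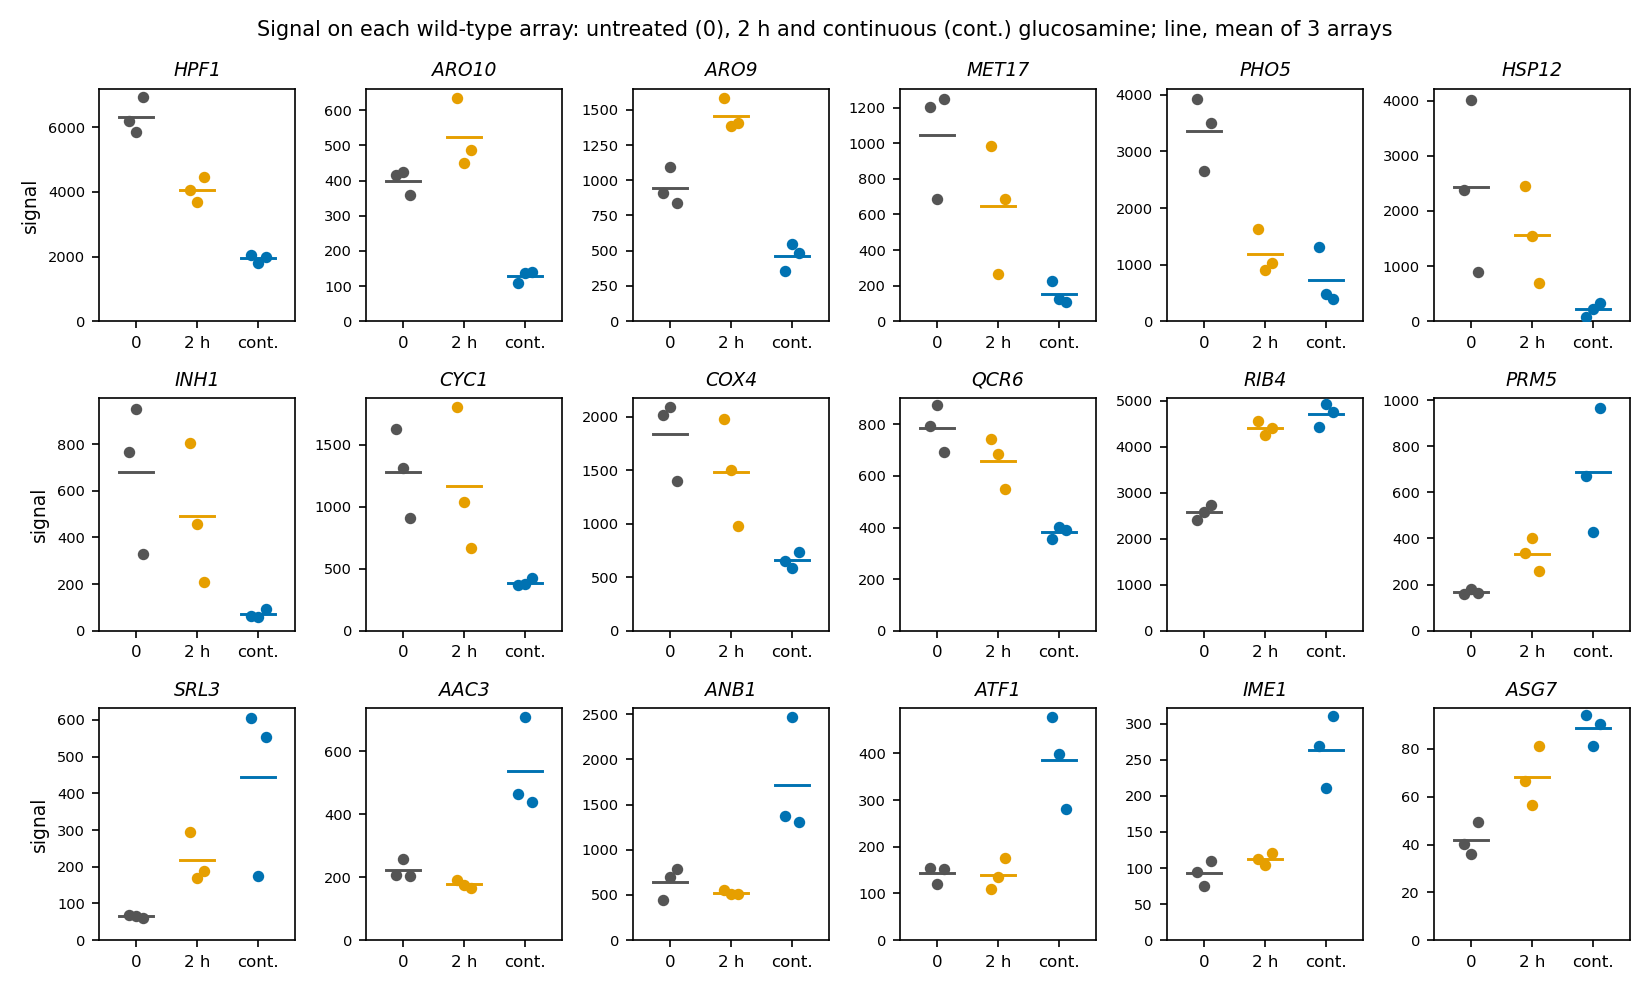
Each panel gives the signal of 1 gene on a linear axis from 0, with a point per array and a line at the mean of 3 arrays, for untreated (0), 2 h and continuous (cont.) glucosamine. In all 18 genes the continuous arrays lie apart from the untreated arrays; RIB4 is level at 2 h and continuous, whereas ARO9 and ARO10 are lower on the continuous arrays than on both other groups.

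The remaining named calls fell in no list. SSK22, a kinase gene of the osmotic stress pathway, read 86.1, 100.1 and 89.8 untreated and 161.7, 194.3 and 178.1 continuous and rose 1.93-fold (limma adjusted p = 0.031). SRD1, linked to ribosomal RNA processing, read 94.7, 123.2 and 114.8 untreated and 270.6, 233.6 and 238.6 continuous and rose 2.24-fold (limma adjusted p = 0.0421). YDL085C-A, of unknown function, rose by 0.81 (limma adjusted p = 0.0486). YSF3, a subunit gene of a splicing factor, was called as a rise with all 6 arrays under the control value, at 2.3 to 4.8 untreated and 15.9 to 22.8 continuous. YHR212W-A was called as a fall from 40.3 to 50.1 down to 7.9 to 21.0, and its continuous arrays were likewise under the control value. YDR034C-A fell by 2.08 in 1 of its 7 probe sets, while the other 6 ranged from -0.74 to 0.24 and none was called. Among these 6, its family probe sets differed by -0.50 and -0.74. Their untreated means were 144 and 104.2, against 1449 for the probe set that fell. The untreated means of the rest, 18.8 to 20.6, lay under the control value, that of the probe set at 0.24 among them. Of the 8 called probe sets with no gene symbol outside the families, 2 rose and 6 fell. One of the falls read 525.6, 553.4 and 796.0 untreated and 176.5, 260.3 and 214.0 continuous.

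Small stable RNAs had mostly negative differences and ribosomal RNAs mostly positive ones. SNR6, the spliceosomal U6 RNA, read 193.3, 125.6 and 157.6 untreated and 43.5, 50.9 and 29.6 continuous and fell 3.88-fold (log2 -1.96, SE 0.30, limma adjusted p = 0.0272). Of 57 probe sets for small nucleolar RNAs 1 fell and none rose, 45 differences were negative and the median was -0.28. The 1 was SNR44, named after its values were seen (log2 -0.77, SE 0.16, limma adjusted p = 0.0486). In 7 of the 57 the continuous arrays lay below all untreated ones, a share near the 9.92% of the other probe sets. In some of the 57 untreated array 3 was far above arrays 1 and 2. SNR71, named after its values were seen, read 140.9, 224.1 and 640.4 untreated and 186.9, 252.5 and 169.5 continuous. Among 16 transfer RNA probe sets outside the families 14 differences were negative, with a median of -0.61 and no call. Probe sets of the ribosomal RNA precursor RDN37-1, looked at after their values were seen, lay in the other direction, 7 of 7 positive with a median of 1.46 and none called. All 7 read 1 gene, and in 2 of the 7 the groups did not overlap. Those with the highest signals differed by only 0.53, 0.50 and 0.31. The 1 with the smallest p read 16.2, 14.6 and 21.3 untreated and 45.5, 79.9 and 36.8 continuous, without overlap (log2 1.58, SE 0.36, limma adjusted p = 0.0666). Its untreated arrays were all under the control value. Another read 2.3, 0.6 and 65.5 on the untreated arrays and 25, 100.2 and 32.2 on the continuous ones, with overlap. Of 6 probe sets of mature ribosomal RNA 5 differences were positive, with a median of 0.44 and no call. Genes of ribosome biogenesis had 42 of 50 differences positive and none called, with a median of 0.16 and, on continuous arrays 1 to 3, of 0.42, 0.33 and -0.23.

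The family probe sets behaved apart from the rest of the array. Such probe sets match repeated families, among them the Ty retrotransposons, subtelomeric genes and paralogous genes, and cannot say which copy was transcribed. Several can read the same transcripts on the same arrays, so the counts below are not of separate genes. Of 538 tested 400 had a positive difference, and in 250 (46.5%) every continuous array lay above every untreated array, against 8.26% of the other probe sets. In 5.02% every continuous array lay below. Their median relative to the untreated mean was 0.03, -0.09 and 0.05 on the untreated arrays, -0.01, 0.18 and 0.36 after 2 h and 0.44, 0.59 and 0.32 on the continuous arrays. The 3 continuous medians exceeded the 3 untreated ones, and 2 h array 3 lay within the continuous range. Over the other probe sets the continuous medians were -0.06, 0.00 and 0.06.

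The difference was unevenly spread by how the probe sets are named. The 190 with a single gene symbol had a median of 0.09 and 5 rises, the 102 that match several genes a median of 0.45 and 16 rises, and the 246 with no symbol a median of 0.67, 54 rises and 2 falls. Among those with 1 symbol, 116 for protein genes had a median of 0.22, whereas 73 for transfer RNAs had a median of -0.20, 26 positive differences and no call. The rise also varied with the level of the signal. Family probe sets with an untreated mean of 1000 to 5000 had a median of 0.58 with 33 of 154 rising, those of 100 to 1000 a median of 0.51 with 36 of 226 rising, and those under 100 a median of 0.17 with 6 of 118 rising. At 5000 and above the median was 0.03 and 0 of 40 rose, although 25 of these differences were positive.

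Named family calls were few, and the genes given here were chosen after their values were seen. YGR109W-B is read by 22 probe sets, whose differences ran from -0.062 to 1.60 and of which 4 rose. The largest belonged to a probe set without the family suffix, which read 60.9, 46.7 and 56.2 untreated and 165.0, 204.3 and 132.9 continuous (log2 1.60, SE 0.27, limma adjusted p = 0.0272). The gene's probe set without the suffix and with the highest signal was not called (log2 1.31, limma adjusted p = 0.101). A family probe set of the same name read 160.6, 198.0 and 204.3 untreated and 412.6, 435.8 and 379.6 continuous (log2 1.13, limma adjusted p = 0.0272). One of 2 family probe sets of HAP1, a heme-responsive activator of respiratory genes, rose by 1.06 (limma adjusted p = 0.0482), while the gene's own probe set without the suffix differed by 0.27. In the strain background of BY4741 the HAP1 gene carries a Ty insertion near its end. YIL060W rose by 0.74 in 1 of 4 probe sets (limma adjusted p = 0.0421). Both family falls had no gene symbol. One of them read 168.4, 281.5 and 263.6 untreated and 59.3, 124.1 and 72.1 continuous (log2 -1.52, limma adjusted p = 0.0447).

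**Figure D5:**
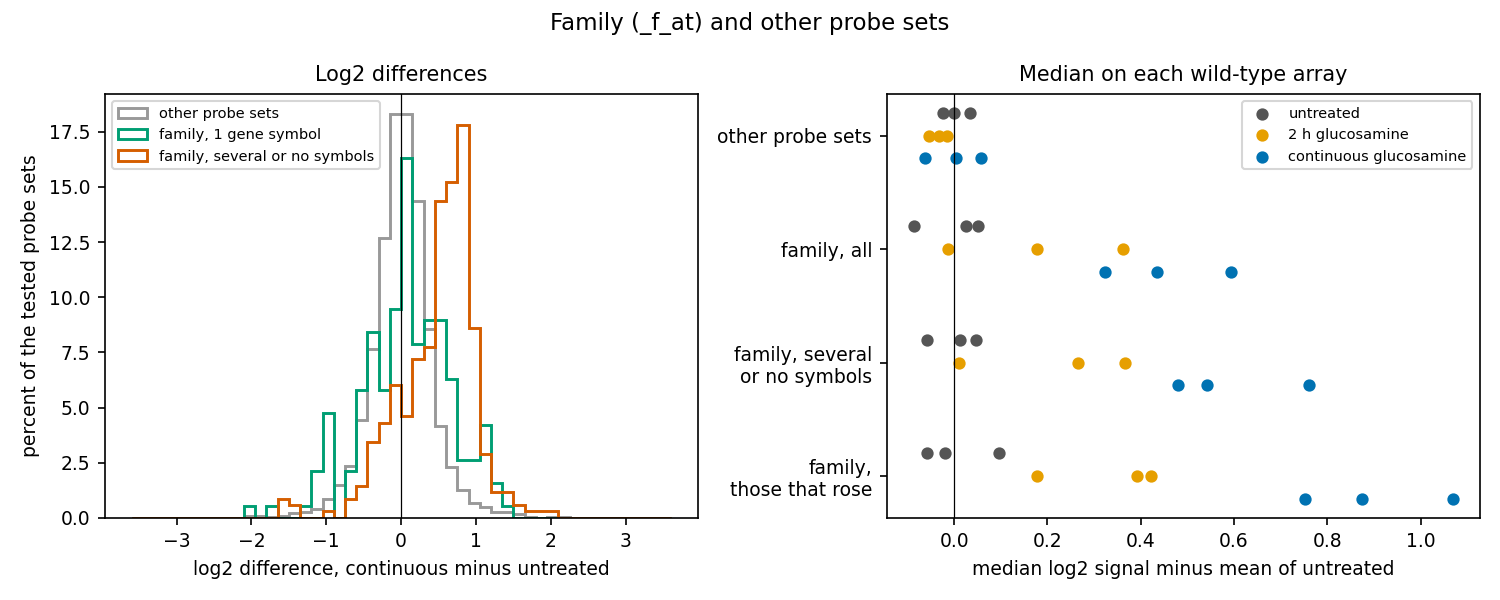
The left panel gives the share (percent) of tested probe sets in bins of log2 difference, and the right panel the median on each wild-type array relative to the untreated mean. Family probe sets that match several or no gene symbols are shifted to the right of 0, and their medians on the continuous arrays lie above those of the untreated arrays; the points for family probe sets that rose show the 75 called rises, which the test chose.

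The number of family calls depended on single arrays. It was 77 with all arrays, 11, 0 and 0 without untreated array 1, 2 or 3, 106, 43 and 103 without 2 h array 1, 2 or 3, and 0, 3 and 80 without continuous array 1, 2 or 3. The other probe sets gave 5, 2 and 5 calls, then 62, 25 and 79, and then 12, 23 and 51, against 47 with all arrays. When the family probe sets were left out before adjustment, 12 of the other 8078 were called in place of 47; this refit changes both the ranking of p-values and the variance estimate, and their parts were not separated. Those 12 held IME1, PRM5, QCR6, ARO10, RIB4, HPF1 and SNR6.

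The direct test of continuous against 2 h called 5 probe sets, 0.058% of 8616 and 0.0619% of those outside the families, none of them a family probe set. ARO10 read 634.3, 450.8 and 486.8 after 2 h, above every continuous and every untreated array (log2 -2.02, SE 0.18, limma adjusted p = 0.00283). ARO9 read 1586.0, 1382.7 and 1407.8 after 2 h, likewise above all of both groups (log2 -1.67, SE 0.18, limma adjusted p = 0.00747). HPF1 was lower on the continuous than on the 2 h arrays by 1.06 (SE 0.11, limma adjusted p = 0.00747). AAC3 read 192.1, 174.6 and 165.1 after 2 h, below every continuous array (log2 1.57, SE 0.21, limma adjusted p = 0.0331). The fifth matches several genes and read 6990.9, 7009.7 and 7185.4 untreated, 5534.5, 4475.1 and 4722.5 after 2 h and 1894.4, 1555.4 and 1981.6 continuous. CYC1, COX4 and QCR6 did not pass this test, although they differed from 2 h by -1.48, -1.12 and -0.78 (limma adjusted p = 0.173, 0.175 and 0.152). RIB4 did not pass it either, and its difference from 2 h was only 0.09 (SE 0.10).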

How the data were processed

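RNA of 11 samples was hybridised to Affymetrix YG-S98 arrays. The deposited values are signal intensities of each probe set on each array, obtained by the authors in GeneChip Analysis Suite, per the labels' protocols; for its version and settings, the sources used here state nothing. The deposited signals share a trimmed mean, so total RNA per cell is not measured. Values under 7.7 (the 10th percentile over the table) were raised to 7.7 before taking log2. Names come from the array's annotation table and a RefSeq table: 6504 probe sets have 1 symbol, 328 several and 2443 none. A gene is represented by its probe set without _f_at and with the highest mean signal.

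The 9 wild-type arrays were fitted in limma 3.58.1 (R 4.3.3) with a variance trend, two-sided, with Benjamini-Hochberg adjustment over 8616 probe sets and a threshold of 0.05; the script was tested on simulated data. The number of arrays, 3 per group, limits the precision. Named genes are the 15 largest rises and falls with 1 symbol outside the families, the called members of 39 gene lists (794 genes tested) with up to 4 further members by p, and the strain markers; any other is said to be named after its values were seen. In the lists 8 genes rose and 13 fell, and 25 lists had no call. Members and lists were chosen with earlier results of these data known. Alternatives changed the floor, filter, scaling, variance model, probe sets and arrays.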

Additional observations from a re-analysis of the deposited data

Results flagged for a closer look

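In 5 probe sets the response to continuous glucosamine differed from that to 2 h of glucosamine by a direct test of the difference. The values, log2 continuous minus 2 h, were -2.016 for ARO10, -1.675 for ARO9, -1.441 for the probe set that matches several genes, -1.059 for HPF1 and 1.566 for AAC3. Against the untreated arrays, every 2 h array was higher in ARO10 and ARO9 and lower in HPF1, in AAC3 and in the probe set of several genes. The 2 h arrays are tied to the untreated arrays by replicate number in their deviations, and the difference between those groups was not tested here with that pairing.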

How the results depend on the processing

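The sign of the difference was kept by all 101 genes followed when any 1 array was left out, but not by 10 of 39 list medians, all within 0.19 of 0 with all arrays. The genes were chosen by p or call on the same arrays, so a kept sign is no separate check. Counts of calls varied widely. The calls in all (124), in the families (77), outside them (47) and in the gene lists (21), and those against 2 h (5), changed as follows. With the floor at the control value they were 18, 7, 11, 4 and 3. Median scaling gave 56, 28 and 28 for the first 3. Without the filter on low signals they were 16, 6, 10 and 3. Without the variance trend they were 11, 2, 9 and 3. With array weights they were 417, 176, 241, 90 and 13. Testing only mean signals above 100 gave 71 outside the families and 34 in the lists. Without family probe sets 12 and 6 (lists) were called, and with plain probe sets only 18 and 13. Leaving out 1 array gave 2 to 182 in all, 0 to 125 higher and 2 to 60 lower, 0 to 106 in the families, 2 to 79 outside them, 1 to 41 in the lists and 2 to 9 against 2 h. Other probe sets of YDR034C-A and YGR109W-B reversed the sign, at 0.24 (untreated mean 20.6, under the control value) and -0.062. The cause was not tested.

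With the replicate number as a block, fitted to only the 6 arrays of each comparison, limma called 0 in each of these counts. At an unadjusted p under 0.05, 1060 (against untreated) and 780 (against 2 h) differed. Without the block, the 6 arrays compared with untreated gave 120 calls in all, and 1280 at an unadjusted p under 0.05. The numbers do not pair the continuous arrays: deviations of same-numbered arrays correlated at -0.01, -0.14 and -0.24 with the untreated and -0.06, -0.04 and -0.20 with the 2 h arrays. Differently numbered arrays correlated at -0.19 to 0.31 with the untreated and -0.29 to 0.31 with the 2 h arrays. Whether the continuous arrays pair in another order was not tested. Same-numbered untreated and 2 h arrays did deviate together (0.36, 0.57 and 0.52), and the unblocked fit, whose spread comes from all 9 arrays, does not use this. With 3 arrays a group, signals near the control value and genes with scattered arrays have no firm call.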
